A study of Homo sapiens with 6 samples.

Results

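The 34 genes described here encode lysosomal hydrolases, lysosomal membrane and sterol transport proteins, subunits of the lysosomal proton pump, transcription factors that act on lysosomal genes, and proteins of autophagy. They were taken by symbol from 27852 gene symbols measured by poly(A) RNA sequencing, and all 34 passed the filter on low values that left 13236 genes for testing. The libraries came from 3 established cell lines derived from human oral squamous carcinomas, named HSC3, HSC4 and SAS, and each was grown in HPLM and in DMEM. HPLM, human plasma-like medium, has nutrients and metabolites near their levels in blood plasma, and DMEM is a standard basal medium. Both contained 10% heat-inactivated fetal bovine serum and an antibiotic-antimycotic mixture, so the 2 groups of 3 libraries differed by medium and shared the serum. A line has a lone library in each medium. The lines therefore serve as the replicates, each group models 3 tumour lines and no normal epithelium, and a difference within 1 line has no replicate check.

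Lysosomes are acidic organelles in which hydrolases break down protein, glycan and lipid delivered by endocytosis or by autophagy. The proton pump keeps the lumen acidic, heavily glycosylated proteins such as LAMP1 line the membrane, and transporters return amino acids and sterols to the cytosol. The factors TFEB and TFE3 are held in the cytosol when mTORC1 is active on the lysosome surface, and enter the nucleus in starved cells, where they bind a palindromic DNA element shared by many lysosomal promoters. In squamous carcinoma, cathepsins are studied for their part in matrix breakdown and invasion.

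That element is shown first because it is the known sequence link between TFEB, TFE3 and the other genes. RefSeq promoters (GRCh38.p14, 250 bases before to 50 bases after the annotated start) matched 27 of the 34 genes. The element's core TCACGTGA, a palindrome and so the same on both strands, occurred in 5 of 27 (18.5%), against 0.98% of all 35116 promoters of this length. Its inner part CACGTG, which every core contains, occurred in 8 of 27 (29.6%), against 7.26% of all promoters. Each of the 27 genes gave 1 promoter, while the 35116 count every distinct start, so a gene can enter more than once. The element was already known from lysosomal promoters, so its higher share in this list describes the list and tests nothing. The 5 promoters with the core follow, each 300 bases read 5′ to 3′ on the strand of the gene with the core in capitals: CTSA at chr20:45891085-45891384 (plus strand), MCOLN1 at chr19:7522374-7522673 (plus), ATP6V0D1 at chr16:67481108-67481407 (minus), LAMP1 at chr13:113296989-113297288 (plus) and GAA at chr17:80101331-80101630 (plus).
CTSA: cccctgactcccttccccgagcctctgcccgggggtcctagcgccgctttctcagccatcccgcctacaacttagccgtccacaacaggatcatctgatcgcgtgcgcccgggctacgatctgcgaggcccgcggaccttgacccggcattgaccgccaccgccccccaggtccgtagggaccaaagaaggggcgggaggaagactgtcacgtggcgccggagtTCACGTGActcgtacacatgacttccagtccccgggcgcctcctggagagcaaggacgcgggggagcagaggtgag
MCOLN1: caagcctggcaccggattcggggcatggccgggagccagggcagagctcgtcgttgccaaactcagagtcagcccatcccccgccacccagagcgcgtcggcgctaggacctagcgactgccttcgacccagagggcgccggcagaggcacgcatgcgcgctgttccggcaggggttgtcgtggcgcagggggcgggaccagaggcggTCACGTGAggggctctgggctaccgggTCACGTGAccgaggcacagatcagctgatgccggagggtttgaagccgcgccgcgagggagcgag
ATP6V0D1: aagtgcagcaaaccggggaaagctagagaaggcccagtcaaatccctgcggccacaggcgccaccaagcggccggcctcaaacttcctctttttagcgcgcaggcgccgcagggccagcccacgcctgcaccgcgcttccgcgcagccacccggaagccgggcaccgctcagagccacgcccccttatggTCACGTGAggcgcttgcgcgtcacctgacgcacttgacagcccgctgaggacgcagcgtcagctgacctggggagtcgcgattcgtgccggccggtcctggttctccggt
LAMP1: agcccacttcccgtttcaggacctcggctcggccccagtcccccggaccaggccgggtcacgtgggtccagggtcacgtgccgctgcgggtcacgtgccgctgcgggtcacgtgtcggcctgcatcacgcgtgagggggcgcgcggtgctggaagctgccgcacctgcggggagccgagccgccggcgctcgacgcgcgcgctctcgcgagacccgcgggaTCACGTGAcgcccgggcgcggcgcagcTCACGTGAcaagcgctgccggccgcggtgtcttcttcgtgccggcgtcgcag
GAA: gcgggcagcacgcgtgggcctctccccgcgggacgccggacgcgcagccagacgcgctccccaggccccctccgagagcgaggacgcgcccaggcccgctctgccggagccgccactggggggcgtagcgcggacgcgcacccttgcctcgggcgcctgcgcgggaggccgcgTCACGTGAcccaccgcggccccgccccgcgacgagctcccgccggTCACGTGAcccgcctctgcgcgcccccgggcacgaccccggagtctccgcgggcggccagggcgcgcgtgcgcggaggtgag
The core began 26 bases before the annotated start in CTSA, 60 bases before it in ATP6V0D1, 42 and 15 bases before it in MCOLN1, 29 and 2 bases before it in LAMP1, and 77 and 32 bases before it in GAA. The antioxidant response core TGACNNNGC, searched on both strands, occurred in 11 of 27 (40.7%), against 13.3% of all promoters. All promoters were not limited to the genes tested here. These shares too describe the list and were not tested. A match describes these letters only, and binding was not measured in these libraries.

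Levels are given in TPM, here a gene's share of its library's length-corrected estimated counts, rescaled to a common total, so they can be compared between genes. NPC2, a soluble protein that carries cholesterol inside the lysosome, had the highest mean over the 6 libraries at 621 TPM, and CD63, a tetraspanin of late endosomes and secreted vesicles, followed at 570.4. CTSD averaged 279, PSAP 273, LAMP1 190.4 and CTSB 190.2 TPM. The ranges of NPC2 (364 to 1010.4) and CD63 (467 to 776) overlapped, and so did those of CTSD, PSAP, LAMP1 and CTSB, so the order within these sets was not separated by the spread over libraries. The lowest were MCOLN1 at 9.39, TFEB at 3.47 and ATP6AP1 at 0.88 TPM. The ranges of MCOLN1 (5.9 to 12.4) and TFEB (0.94 to 5.88) just did not overlap, while those of TFEB and ATP6AP1 (0.17 to 1.94) did. The value of ATP6AP1 covers 9 of its 10 transcripts in GENCODE 29, since 1 was not analysed.

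**Figure D1:**
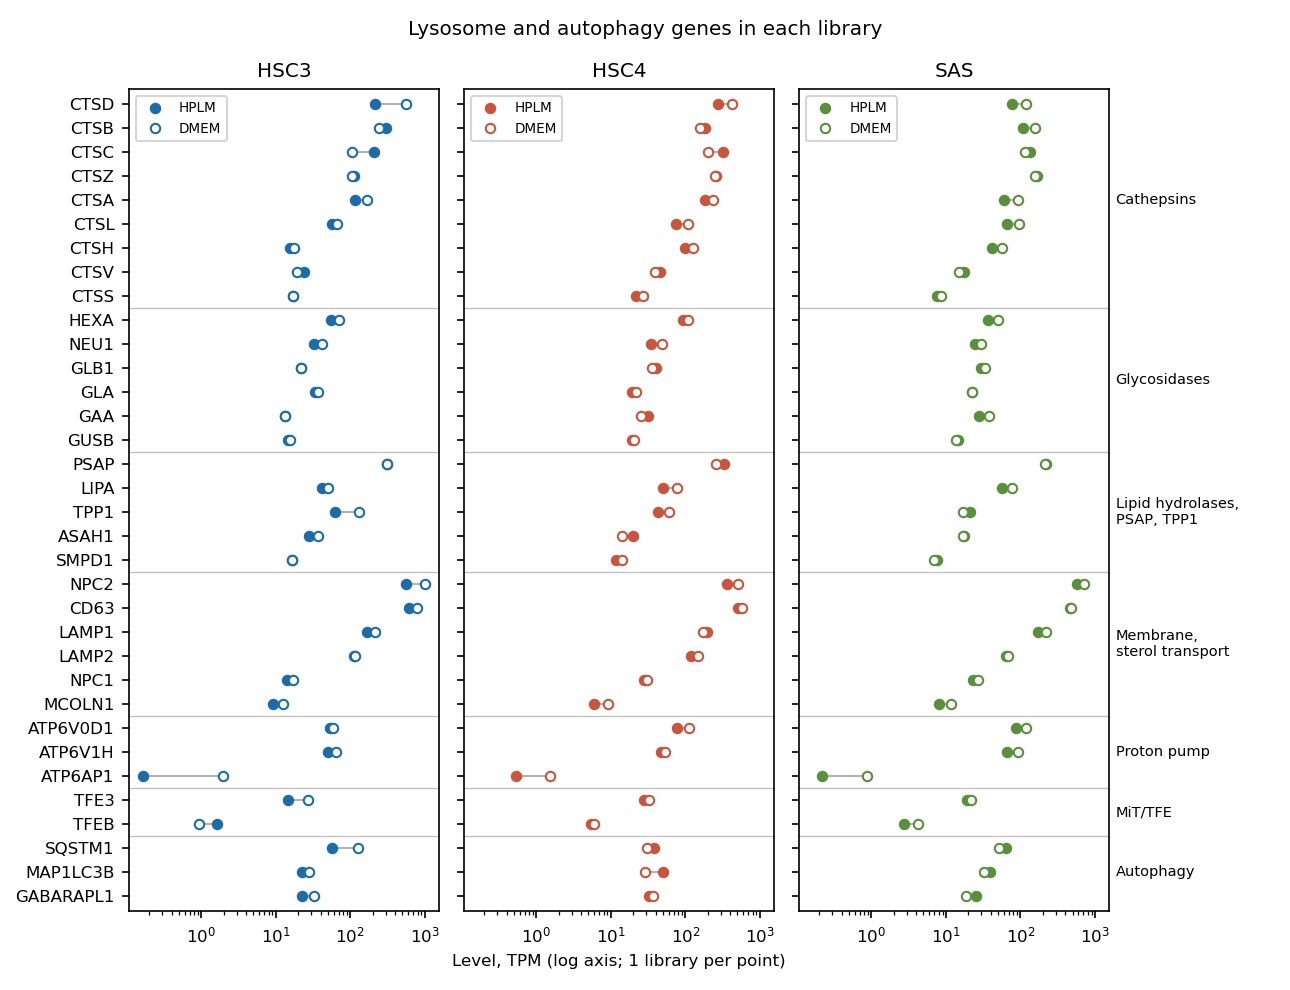
Level of each of the 34 genes in every library, TPM on a log axis, with genes grouped by role, 1 panel per line, with HPLM filled and DMEM open. NPC2 lies at 364 or more and CD63 at 467 or more in all 6 libraries, and ATP6AP1 at 1.94 or less.

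Library totals of estimated counts lay between 17715962 and 20171750. All 10 markers of squamous epithelium were above 1 TPM in every library, and their sum was 1847 to 5398 in HPLM and 2625 to 6301 in DMEM. The fibroblast list summed to 3.03 to 5.41 in HPLM and 1.74 to 5.79 in DMEM. COL1A1 made up most of this sum in HSC3 (5.2 TPM in HPLM, 5.44 in DMEM) and HSC4 (4.2, 4.13). Its level was lower in SAS (0.93, 0.86), and COL3A1 was at 0 in all libraries. The leukocyte list summed to 4.68 to 8.38 in HPLM and 4.31 to 8.46 in DMEM, with PTPRC alone of 7 above 1 throughout and MS4A1 at 0. The endothelial list summed to 0.34 to 2.3 in HPLM and 0.43 to 1.13 in DMEM. In bulk RNA, fewer cells of a type and less RNA per cell cannot be told apart.

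The medium comparison asked how these genes differ between cells in plasma-like and in standard medium. Of the 34, 22 had a negative fitted log2 fold change of HPLM over DMEM (64.7%, against 49.9% of all genes), and the cathepsin genes CTSC and CTSV were higher in HPLM in all 3 lines. Apart from ATP6AP1, near the detection limit, the lowest values at an unadjusted p under 0.05 were those of CTSD, NPC2, MCOLN1, CTSA, LIPA and CTSL. In edgeR's quasi-likelihood test with the line as a block, 0 of the 34 passed a Benjamini-Hochberg adjusted p of 0.05, and over all 13236 genes 1 passed (0.00756%), the splicing factor gene XAB2, named here because it was the sole call. At an unadjusted p under 0.05, 12 of the 34 were lower in HPLM (35.3%) and 2 were higher, against 4.55% lower and 5.57% higher among all genes. The log2 ratio of HPLM over DMEM was below 0 in all 3 lines for 15 of the 34 (44.1%) and above 0 in all 3 for 4, against 17.2% and 16.9% of all genes. The median fitted log2 fold change was −0.13 over the 34 and 0.0004 over all genes, and the medians of the ratios in HSC3, HSC4 and SAS were −0.26, −0.14 and −0.12. DESeq2 on the same counts called 4 of the 34, CTSD, NPC2 and CTSA lower and CTSC higher, against 0.96% of all genes, 0.348% lower and 0.612% higher. The limma-voom fit called 0 of the 34, against 0.068% of all genes. The counts at an unadjusted p depended on the block: without the line as a term, 1 of the 34 was lower and 0 were higher.

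CTSD, the aspartic protease that is among the most abundant lysosomal enzymes, had the lowest fitted log2 fold change of the 34 after the barely detected ATP6AP1. It had 212, 275 and 77.9 TPM in HSC3, HSC4 and SAS in HPLM, against 566, 424 and 118 in DMEM. Each line was lower in HPLM, and the media overlapped because SAS in DMEM lay below HSC3 and HSC4 in HPLM. The fitted log2 fold change was −0.83 ± 0.19 (SE, 3 lines; edgeR, unadjusted p = 0.0044, adjusted p = 0.362; DESeq2 adjusted p = 0.000864). HSC3 had the largest ratio, −1.41 on the log2 scale, and without either HSC3 library the fitted value was −0.54.

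CTSA, the carboxypeptidase that also stabilises GLB1 and NEU1 in a complex, had 117, 184 and 59.5 TPM in HSC3, HSC4 and SAS in HPLM, against 167, 231 and 93.2 in DMEM. All 3 lines were lower in HPLM, with log2 ratios of −0.51, −0.27 and −0.57. The fitted value was −0.45 ± 0.10 (SE of the fit, edgeR, unadjusted p = 0.0036, adjusted p = 0.362, DESeq2 adjusted p = 0.0205). CTSL, an endopeptidase of broad specificity, had 56, 75 and 66.6 TPM in HPLM, against 65.5, 109.8 and 94.6 in DMEM, and a log2 fold change of −0.38 ± 0.10 (edgeR, unadjusted p = 0.0075, adjusted p = 0.381). Each HPLM library of CTSA and CTSL lay below the DMEM library of its own line, and the media overlapped across lines.

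CTSC, the dipeptidyl peptidase that activates granule serine proteases in immune cells, went the other way. Its level was 209, 325 and 136 TPM in HSC3, HSC4 and SAS in HPLM, against 104, 200.4 and 116 in DMEM, with ratios of 2.01-fold, 1.69-fold and 1.24-fold. The fitted log2 fold change was 0.69 ± 0.14 (SE, 3 lines; edgeR, unadjusted p = 0.0029, adjusted p = 0.362; DESeq2 adjusted p = 0.00182), the smallest unadjusted p among the 34. CTSV, a cysteine protease found mainly in thymus, testis and epithelia, had 24, 45.7 and 17.6 TPM in HPLM, against 19.4, 38.7 and 14.8 in DMEM. Its log2 ratios lay within 0.30 to 0.33 in the 3 lines (fitted 0.31 ± 0.09; edgeR, unadjusted p = 0.0163, adjusted p = 0.406).

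Among the other cathepsins, CTSB, a cysteine protease with carboxydipeptidase activity, had 298, 181 and 107 TPM in HSC3, HSC4 and SAS in HPLM, against 239.6, 159 and 156 in DMEM. It was higher in HPLM in HSC3 and HSC4 and lower in SAS, and its fitted log2 fold change was 0.04 ± 0.17 (edgeR, adjusted p = 0.958). CTSH, an aminopeptidase, had 15.6, 100.1 and 41.4 TPM in HPLM, against 17.5, 125 and 56.9 in DMEM, and a log2 fold change of −0.27 ± 0.10 (edgeR, unadjusted p = 0.0296, adjusted p = 0.447). Of 19 GENCODE 29 transcripts of CTSH 17 were analysed, and coding transcripts held 4.46% of the CTSH signal. On those alone, an alternative chosen after the transcript make-up was seen, the sign turned, to 0.89 (edgeR, unadjusted p = 0.178). That value is near the floor. The coding transcript with the highest mean averaged 1.58 TPM and was 0 in HSC3 in DMEM. The carboxypeptidase gene CTSZ was slightly higher in HPLM in all 3 lines at 0.12 ± 0.08, and CTSS, best known from antigen-presenting cells, had −0.10 ± 0.12. Summed over the 9 cathepsins, the level was 1058, 1463 and 683 TPM in HPLM, against 1299.5, 1567 and 817 in DMEM in HSC3, HSC4 and SAS.

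Of the 6 glycosidases, 2 were lower in HPLM at an unadjusted p under 0.05. HEXA, the alpha subunit of the hexosaminidase that degrades GM2 ganglioside, had 55, 94.3 and 37 TPM in HSC3, HSC4 and SAS in HPLM, against 69.7, 110.1 and 49.7 in DMEM, and a log2 fold change of −0.28 ± 0.09 (edgeR, unadjusted p = 0.0222, adjusted p = 0.423). NEU1, the lysosomal sialidase, had 33.1, 35.1 and 24.3 TPM in HPLM, against 41.6, 48 and 29.8 in DMEM, and a log2 fold change of −0.31 ± 0.10 (edgeR, unadjusted p = 0.0172, adjusted p = 0.409). For each gene all 3 lines were lower in HPLM and the media overlapped. The other glycosidases, GLA (alpha-galactosidase), GLB1 (beta-galactosidase), GAA (acid alpha-glucosidase) and GUSB (beta-glucuronidase), had fitted log2 fold changes from −0.07 to 0.04, and none had the same direction in all 3 lines. GAA, whose promoter holds the core, had ratios of 0.01, 0.38 and −0.35 in HSC3, HSC4 and SAS.

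LIPA, the acid lipase that frees cholesterol and fatty acids from lipoprotein esters, had 41.3, 49.7 and 56.8 TPM in HSC3, HSC4 and SAS in HPLM, against 50, 76.2 and 78.1 in DMEM. All 3 lines were lower in HPLM, with a fitted value of −0.40 ± 0.10 (SE of the fit, edgeR, unadjusted p = 0.0066, adjusted p = 0.371). TPP1, a tripeptidyl peptidase, had 62.1, 42.6 and 20.8 TPM in HPLM, against 129.7, 59.9 and 17.2 in DMEM. Its ratios were −1.05, −0.43 and 0.35 in the same order, and the fitted value was −0.41 ± 0.25 (edgeR, adjusted p = 0.632) with all libraries and −0.06 without either HSC3 library. PSAP, the precursor of the saposins that present sphingolipids to their hydrolases, was above 0 in all 3 lines at 0.16 ± 0.10, and the sphingolipid hydrolase genes ASAH1 (acid ceramidase) and SMPD1 (acid sphingomyelinase) had 0.06 ± 0.18 and 0.004 ± 0.14.

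All 6 membrane and sterol transport genes had a negative fitted log2 fold change, and 2 were lower at an unadjusted p under 0.05. NPC2 had 561, 364 and 566 TPM in HSC3, HSC4 and SAS in HPLM, against 1010.4, 501 and 722 in DMEM. All 3 lines were lower in HPLM, HSC3 most. The fitted value was −0.50 ± 0.13 (SE of the fit, edgeR, unadjusted p = 0.0074, adjusted p = 0.381, DESeq2 adjusted p = 0.017). Without either HSC3 library the value was −0.335. NPC1, the membrane partner that takes cholesterol from NPC2, had 14.3, 28.1 and 23.1 TPM in HPLM, against 17.1, 30.7 and 26.6 in DMEM, and a smaller value of −0.14 ± 0.10 (edgeR, adjusted p = 0.679).

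MCOLN1, the cation channel through which lysosomes release calcium, showed no overlap between media. It had 9.08, 5.9 and 7.96 TPM in HSC3, HSC4 and SAS in HPLM, against 12.4, 9.12 and 11.8 in DMEM, so the highest HPLM library lay just below the lowest DMEM library. Its fitted value was −0.50 ± 0.14 (SE of the fit, edgeR, unadjusted p = 0.0104, adjusted p = 0.382). ATP6AP1 was the other gene of the 34 with all 3 HPLM libraries below all 3 DMEM libraries, a pattern held by 1.87% of all genes.

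LAMP1, the most used marker of the lysosome membrane, had 169, 197 and 171 TPM in HSC3, HSC4 and SAS in HPLM, against 214, 174 and 217 in DMEM. It was lower in HPLM in HSC3 and SAS and higher in HSC4 (fitted −0.12 ± 0.13; edgeR, adjusted p = 0.797). With 1 library left out the fitted value was between −0.30, without HSC4 in DMEM, and −0.01, without HSC3 in DMEM. Its promoter holds the core at 2 places. LAMP2, which is also the receptor of chaperone-mediated autophagy in its A form, had 112, 119 and 63.7 TPM in HPLM, against 114, 148 and 68.6 in DMEM (fitted −0.10 ± 0.09; edgeR, adjusted p = 0.765). CD63 had −0.14 ± 0.10 (edgeR, adjusted p = 0.677). Summed over the 6 genes, the level was 1472, 1226 and 1299.5 TPM in HPLM, against 2144, 1444 and 1526 in DMEM.

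All 3 proton pump genes were lower in HPLM at an unadjusted p under 0.05. ATP6V0D1, a subunit that joins the membrane ring to the stalk, had 52.9, 78.1 and 86.8 TPM in HSC3, HSC4 and SAS in HPLM, against 58.8, 111 and 119.9 in DMEM, and a log2 fold change of −0.33 ± 0.10 (edgeR, unadjusted p = 0.016, adjusted p = 0.406). ATP6V1H, a regulatory subunit of the cytosolic part, had 50, 47.3 and 65.2 TPM in HPLM, against 64.1, 52.6 and 93.7 in DMEM, and −0.30 ± 0.10 (edgeR, unadjusted p = 0.0298, adjusted p = 0.448). Each line was lower in HPLM for both genes, and the media overlapped. On coding transcripts alone ATP6V0D1 kept its value, at −0.32 (edgeR, unadjusted p = 0.0123), ATP6V1H had −0.18 (edgeR, unadjusted p = 0.134), and ATP6AP1 could not be tested.

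ATP6AP1, an accessory subunit, was near the detection limit over the 9 of its 10 GENCODE 29 transcripts that were analysed. It had 0.17, 0.53 and 0.22 TPM in HSC3, HSC4 and SAS in HPLM, against 1.94, 1.54 and 0.86 in DMEM, which are estimated counts of 3, 9 and 4 against 38, 30 and 16. The media did not overlap, and the fitted log2 fold change of −2.32 ± 0.58 (edgeR, unadjusted p = 0.007, adjusted p = 0.374) depends on the prior count and is no bound. The transcript that carried most of this signal, ATP6AP1-208 (81.7% of the mean), is annotated as a processed transcript, and the coding transcript ATP6AP1-201 was above 0 in HSC3 in DMEM alone.

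TFEB had 1.65, 5.41 and 2.76 TPM in HSC3, HSC4 and SAS in HPLM, against 0.94, 5.88 and 4.17 in DMEM. Its ratios of 0.71, −0.06 and −0.49 differed in sign between lines, and the fitted log2 fold change was 0.01 ± 0.31 (edgeR, adjusted p = 0.995). TFE3 had 14.7, 28 and 19.4 TPM in HPLM, against 27.1, 32.2 and 21.5 in DMEM, so it was the more abundant factor in every library. Its fitted value was −0.35 ± 0.18 (edgeR, unadjusted p = 0.0931, adjusted p = 0.564) with all libraries and −0.10 without either HSC3 library. Messenger RNA does not show where these factors lie in the cell.

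The 3 autophagy genes split by line. SQSTM1, which encodes the autophagy receptor p62, had 57.1, 37.6 and 64.8 TPM in HSC3, HSC4 and SAS in HPLM, against 129, 30.4 and 51.1 in DMEM. Its log2 ratio was −1.17 in HSC3 but 0.36 and 0.42 in the other lines, and the fitted value was −0.13 ± 0.32 (edgeR, adjusted p = 0.927) with all libraries and 0.39 without either HSC3 library. MAP1LC3B, which encodes an LC3 protein of the autophagosome membrane, had 22.8, 50.2 and 39.2 TPM in HSC3, HSC4 and SAS in HPLM, against 28.2, 28.5 and 32.5 in DMEM, with ratios of −0.30, 0.87 and 0.35. GABARAPL1, of the same protein family, had ratios of −0.51, −0.14 and 0.50. For all 3 genes HSC3 was lower in HPLM and SAS was higher, and with 1 library per line and medium this difference between lines could not be tested.

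**Figure D2:**
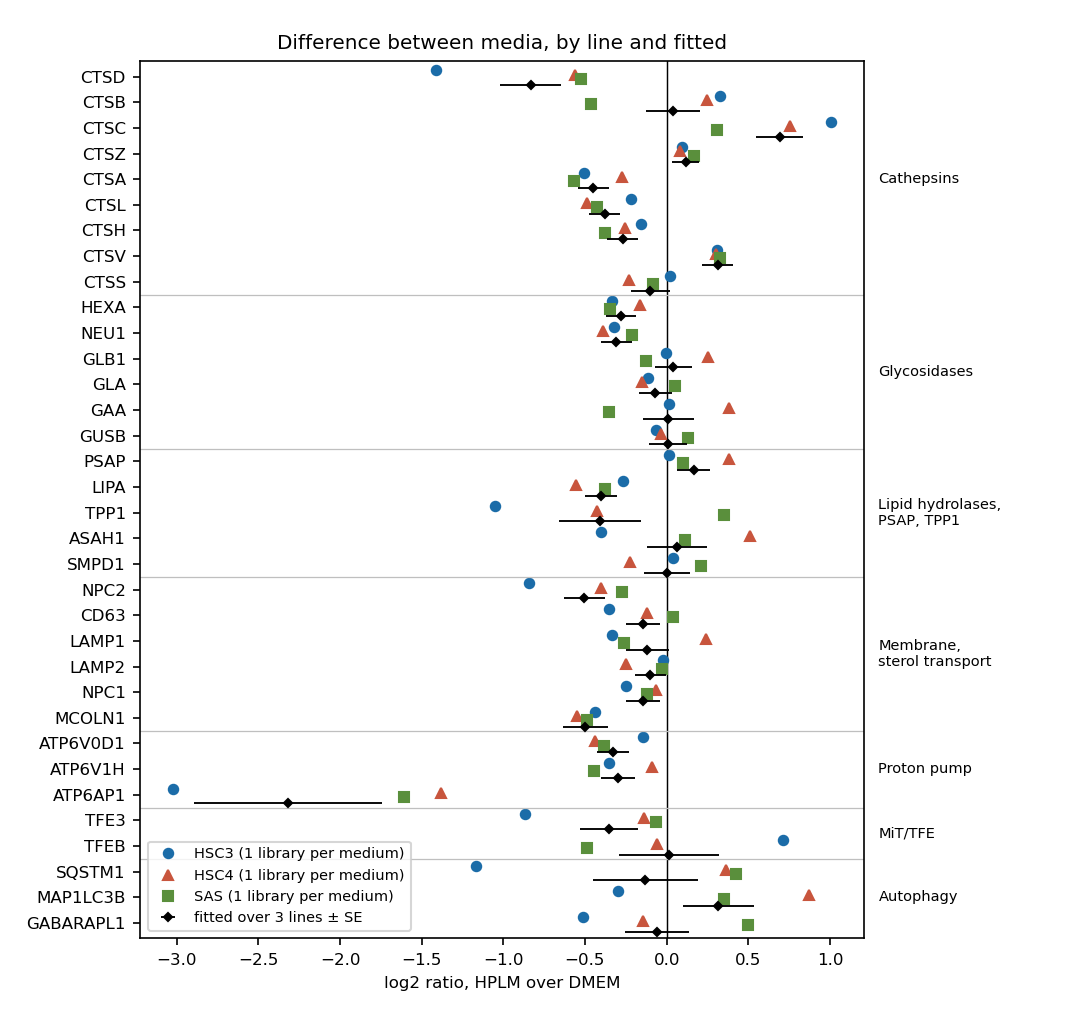
Log2 ratio of HPLM over DMEM for each gene in HSC3, HSC4 and SAS, and the fitted log2 fold change over the 3 lines with its standard error. CTSD, NPC2, CTSA, LIPA and MCOLN1 lie left of 0 in all 3 lines and CTSC and CTSV right of 0, while SQSTM1 lies at −1.17 in HSC3 and at 0.36 and 0.42 in HSC4 and SAS.

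Between lines, many of the 34 differed in the same fit. HSC3 against HSC4 gave 20 of the 34 past an adjusted p of 0.05 (58.8%, against 37.4% of all genes), 8 higher (18.6% of all genes) and 12 lower (18.8%). HSC3 against SAS gave 24 (70.6%, against 39.4%), 14 higher (20.6% of all genes) and 10 lower (18.8%). HSC4 against SAS gave 15 (44.1%, against 41.3%), 12 higher (21.3% of all genes) and 3 lower (20%). The total for HSC4 against SAS was close to the share among all genes. Library totals in place of TMM factors left 18 calls between HSC3 and HSC4, 4 higher and 14 lower. Each line contrast rests on 2 libraries per line. Shares among all genes are not given here for library totals or with a library left out. Those counts show only how far the calls depend on the setting. With HSC3 in HPLM, HSC3 in DMEM, HSC4 in HPLM or HSC4 in DMEM left out, HSC3 against HSC4 gave 13, 10, 7 or 8 calls. HSC3 against SAS gave 13 without HSC3 in DMEM, 14 without SAS in HPLM and 11 without SAS in DMEM, and HSC4 against SAS gave 9 without HSC4 in HPLM and 8 without HSC4 in DMEM.

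Cathepsins carried many of these differences, with 7 of 9 past the threshold between HSC3 and HSC4, 8 of 9 between HSC3 and SAS and 7 of 9 between HSC4 and SAS. In the same order all genes had 37.4%, 39.4% and 41.3%. Glycosidases had 4, 5 and 2 of 6, the lipid hydrolase group 2, 5 and 2 of 5, and the membrane genes 4, 3 and 3 of 6. High shares in the HSC3 contrasts were thus not particular to cathepsins. CTSH was lower in HSC3 than in HSC4, with a log2 fold change of −2.62 ± 0.12 (SE, 2 libraries per line; edgeR, adjusted p = 0.000388), and lower in HSC3 than in SAS at −1.56 ± 0.12 (edgeR, adjusted p = 0.000775). HSC3 had 15.6 TPM in HPLM and 17.5 in DMEM, HSC4 had 100.1 and 125, and SAS had 41.4 and 56.9. That CTSH signal was 4.46% coding. With coding transcripts alone CTSH had −1.38 for HSC3 over HSC4, −0.17 for HSC3 over SAS and 1.22 for HSC4 over SAS (edgeR, adjusted p = 0.155, 0.871 and 0.197). Those coding values were near the floor, the highest transcript averaging 1.58 TPM. CTSL had −0.28 for HSC3 over SAS on coding transcripts alone and was not called there (edgeR, adjusted p = 0.111). The cathepsin counts above include these CTSH and CTSL calls. CTSZ was lower in HSC3 than in HSC4 with a log2 fold change of −1.10 ± 0.10 (edgeR, adjusted p = 0.00145), at 111 and 104 TPM in HSC3 against 256 and 252 in HSC4.

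SAS had the lowest levels of several proteases. CTSD was higher in HSC3 than in SAS by 1.86 ± 0.24 and higher in HSC4 than in SAS by 1.68 ± 0.23 on the log2 scale (edgeR, adjusted p = 0.00265 and 0.00356). TPP1 was higher in HSC3 than in SAS by 2.24 ± 0.32 and higher in HSC3 than in HSC4 by 1.00 ± 0.30 (edgeR, adjusted p = 0.00384 and 0.0445). CTSS and CTSA were higher in HSC4 than in SAS by 1.43 ± 0.15 and 1.32 ± 0.12 (edgeR, adjusted p = 0.0015 and 0.0011). Of the 34, 13 had both SAS libraries below all 4 other libraries, against 24.6% of all genes, and 12 had both HSC4 libraries above all 4 others, against 26.5%. The remaining patterns of this kind held fewer of the 34: 9 with HSC3 below, 6 with HSC3 above, 3 with HSC4 below and 1 with SAS above. Their shares among all genes are not given here, so nothing is read from these counts.

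HSC3 had more SQSTM1 than HSC4, by 1.55 ± 0.40 on the log2 scale (edgeR, adjusted p = 0.027), and its HPLM and DMEM libraries lay further apart than those of HSC4 and SAS. TFEB was lower in HSC3 than in HSC4, at −1.97 ± 0.40, and lower than in SAS, at −1.41 ± 0.40 (edgeR, adjusted p = 0.0127 and 0.036). GAA was lower in HSC3 than in SAS, at −1.29 ± 0.20, and SMPD1 was higher by 1.16 ± 0.17 (edgeR, adjusted p = 0.00463 and 0.00442). ASAH1 was higher in HSC3 than in HSC4 by 1.08 ± 0.23 (edgeR, adjusted p = 0.0139). Only 12 of its 69 GENCODE 29 transcripts were analysed, so its levels and contrasts describe those alone. Coding transcripts held 4.43% of that signal, and on those alone the value was −0.46 (edgeR, adjusted p = 0.449). Against SAS the sign of ASAH1 turned: HSC3 was higher by 0.90 ± 0.22 over all transcripts (edgeR, adjusted p = 0.0231) and lower, at −2.02, on coding transcripts alone (edgeR, adjusted p = 0.0123). The coding value is near the floor. Its main coding transcript had 0.56 and 0.34 TPM in HSC3 in HPLM and DMEM, against 1.91 and 1.56 in SAS.

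HSC4 was lower than SAS for 3 genes. ATP6V1H had −0.80 ± 0.13, NPC2 −0.73 ± 0.16 and MCOLN1 −0.55 ± 0.17 on the log2 scale (edgeR, adjusted p = 0.00567, 0.0134 and 0.0435). NPC2 in HSC4 had 364 and 501 TPM in HPLM and DMEM, against 566 and 722 in SAS. LAMP1 did not pass the threshold in any contrast, with log2 fold changes from −0.20 to 0.17, and neither did TFE3, MAP1LC3B, GABARAPL1, GUSB or ATP6AP1.

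**Figure D3:**
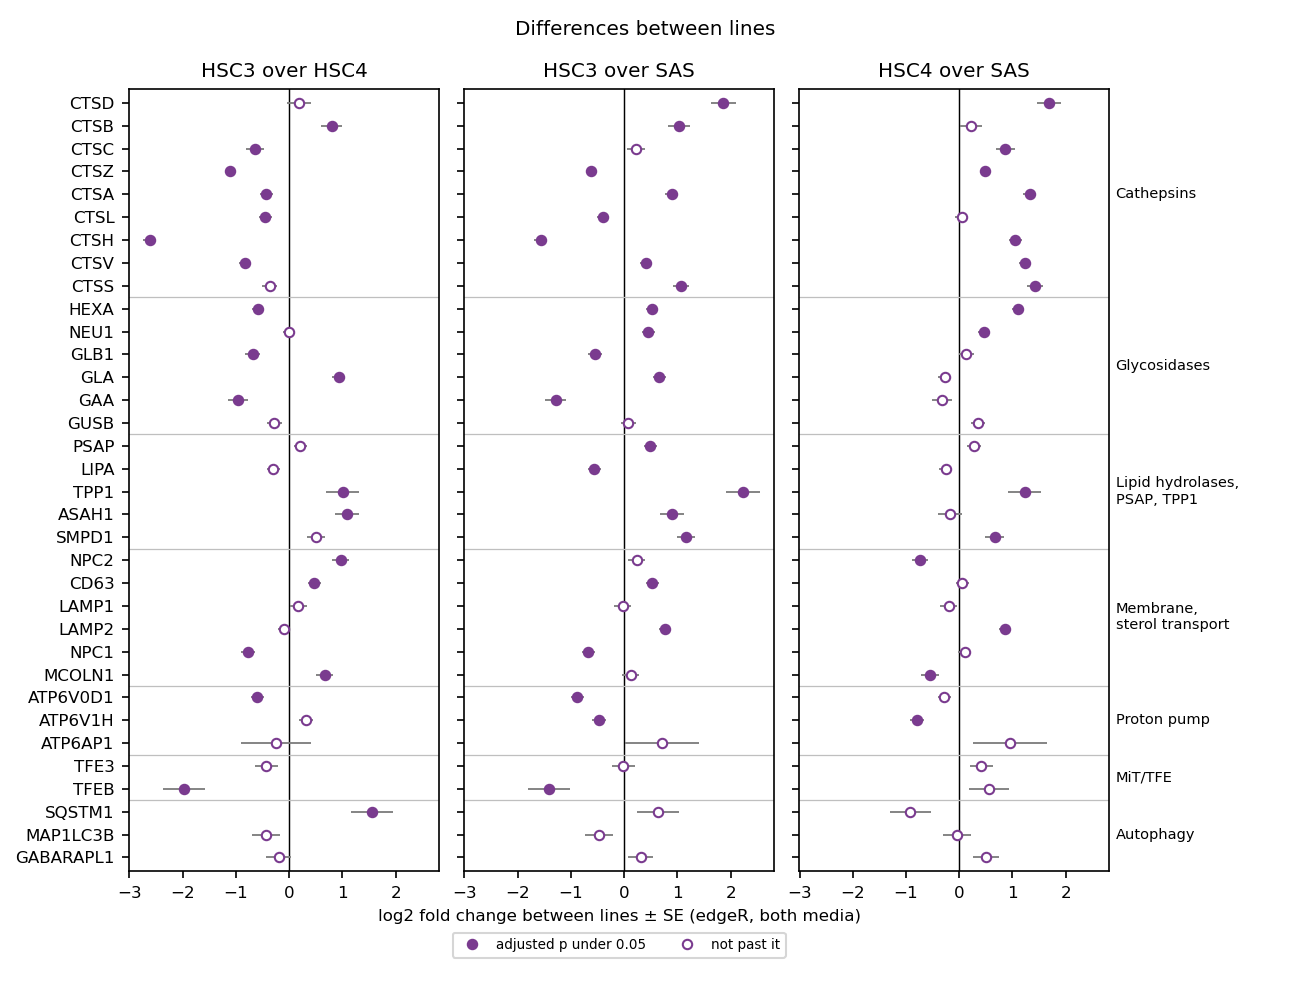
Log2 fold change between lines for each gene, with its standard error, for HSC3 over HSC4, HSC3 over SAS and HSC4 over SAS. Filled points passed an adjusted p of 0.05; CTSH lies at −2.62 in the left panel, and most cathepsins lie right of 0 in the right panel.

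The table held 419 transcripts of the 34 genes. The transcript with the largest share was coding in GENCODE 29 (GRCh38), or outside that release, for 30 of them. Coding transcripts held a median of 81.7% of a gene's signal. In these shares and in all results on coding transcripts alone, transcripts outside that release are counted as coding. The share was under 50% for 5 genes, CTSH, ASAH1, ATP6AP1, GUSB and CTSS, and at least 90% for 16, CTSD (99.9%), NPC2 (99.5%) and CTSC (97.9%) among them. Transcript shares are estimates, since overlapping transcripts share reads. For 11 genes some GENCODE 29 transcripts were not analysed here, most for ASAH1 (57 of 69), TPP1 (21 of 36) and CTSD (8 of 14). For NEU1, 36 of 40 transcripts lay outside the primary assembly's annotation, so their type is not known. Its share of 99.1% counts them as coding.

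On coding transcripts alone, 33 of the 34 could be tested and 0 were called between media. At an unadjusted p under 0.05, 11 were lower in HPLM and 2 higher. The shares among all genes in this fit are not given here, so nothing more is read from these counts. TFE3 had −0.52 (edgeR, unadjusted p = 0.0234) and TPP1 −0.51 (edgeR, unadjusted p = 0.0193), larger than over all transcripts. CTSH and ATP6V1H moved as given above. CTSS turned from −0.10 to 0.22 and GUSB from 0.007 to −0.28 (edgeR, unadjusted p = 0.159 and 0.133 on coding transcripts). ASAH1 went from 0.06 to 0.54 on a coding signal near the floor (edgeR, unadjusted p = 0.164). SMPD1 and GABARAPL1, both with small values, also changed sign.

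LAMP2 has 3 coding forms that differ in the membrane anchor and tail, and its transcripts LAMP2-201, LAMP2-202 and LAMP2-203 held 65.9%, 29.6% and 4% of the signal. LAMP2-201 had 59.5, 86.9 and 37.4 TPM in HSC3, HSC4 and SAS in HPLM, against 72.7, 117 and 39.8 in DMEM. It was lower in HPLM in all 3 lines. LAMP2-202 had 46.3, 28.4 and 21.9 TPM in HPLM, against 37.4, 26.3 and 24.9 in DMEM, higher in HPLM in HSC3 and HSC4 and lower in SAS. The share of LAMP2-201 in HSC3 was 53% in HPLM and 63.6% in DMEM, in HSC4 72.8% and 78.8%, and in SAS 58.6% and 58%, with no test at this level.

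**Figure D4:**
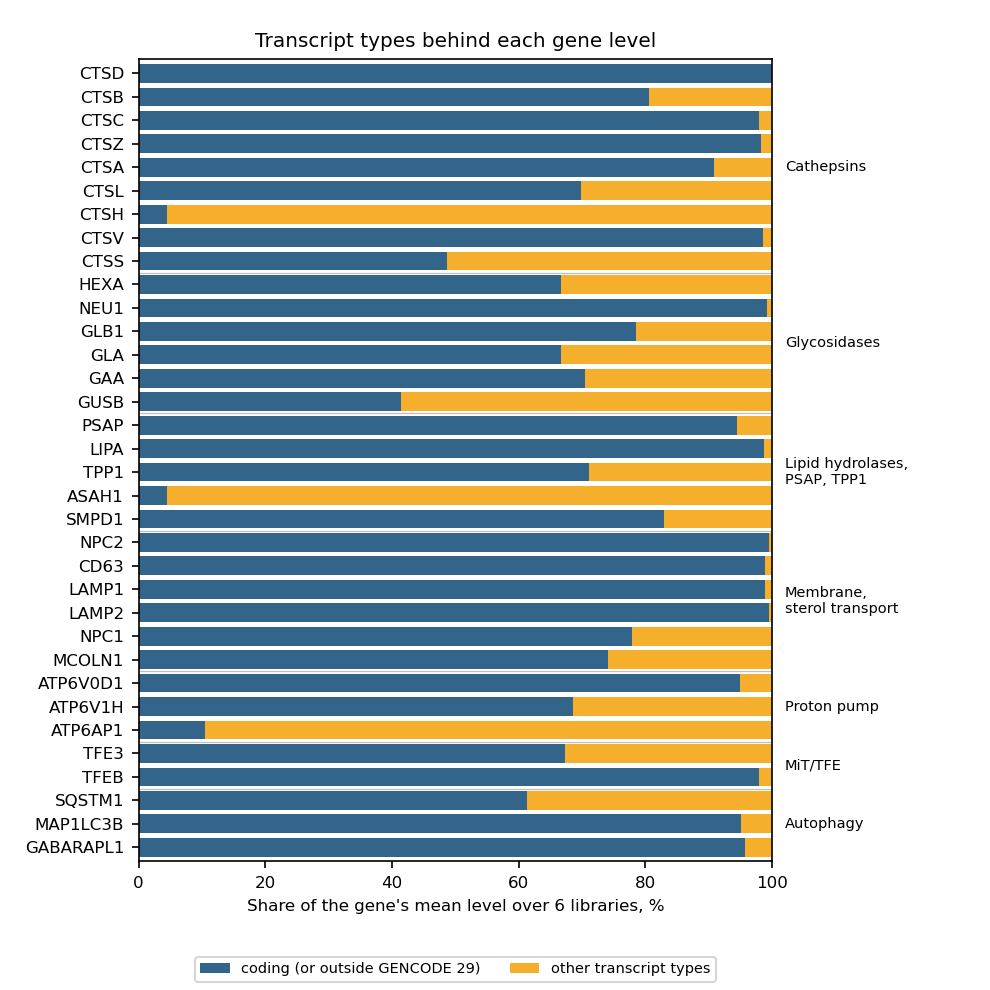
Share of each gene's signal held by coding transcripts (or transcripts outside GENCODE 29) and by the other transcript types, in percent of the mean over the 6 libraries. ASAH1, CTSH and ATP6AP1 stand apart with coding shares of 4.43%, 4.46% and 10.5%. Shares are of the transcripts analysed, which leave out 57 of 69 GENCODE 29 transcripts for ASAH1.

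Wider lists of the same pathways were read in the same fit for HPLM over DMEM. In that comparison 0 of their genes passed an adjusted p of 0.05 in edgeR. Over all genes tested, 49.9% had a negative value, 17.2% were lower in all 3 lines, and at an unadjusted p under 0.05 4.55% were lower and 5.57% higher. Of 35 other lysosomal hydrolases tested, 28 had a negative log2 fold change, the median was −0.17, 12 were lower in all 3 lines (34.3%), and by unadjusted p 6 were lower and 0 higher. GALNS, a sulfatase of keratan sulfate breakdown, had 5.73, 19.6 and 2.94 TPM in HSC3, HSC4 and SAS in HPLM, against 9.35, 30 and 5.34 in DMEM, and −0.66 ± 0.13 (edgeR, adjusted p = 0.362). NAGLU, which acts on heparan sulfate, had 10, 16.4 and 6.85 TPM in HPLM, against 14.4, 28.1 and 9.69 in DMEM, and −0.55 ± 0.13 (edgeR, adjusted p = 0.362).

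Of 28 other lysosomal membrane genes, 22 had a negative value, with a median of −0.15, and at an unadjusted p under 0.05 there were 5 lower and 2 higher. MCOLN3, a relative of MCOLN1, had 7.23, 6.09 and 12.5 TPM in HSC3, HSC4 and SAS in HPLM, against 17.8, 8.88 and 18.9 in DMEM, and −0.76 ± 0.20 (edgeR, adjusted p = 0.381). CTNS, the lysosomal cystine exporter, had −0.46 ± 0.13 (edgeR, adjusted p = 0.401), lower in HPLM in all 3 lines. Of 22 sorting genes 15 were negative, with a median of −0.08 and 2 lower at an unadjusted p under 0.05, the mannose 6-phosphate receptor gene M6PR at −0.22 ± 0.09 and GNPTG, a subunit of the enzyme that makes the mannose 6-phosphate tag, at −0.30 ± 0.12 (edgeR, adjusted p = 0.492 and 0.484).

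Of the other 17 proton pump genes, 9 had a positive and 8 a negative value. Their median was 0.02, with 2 genes higher and 1 lower by unadjusted p. ATP6V1B2, a catalytic-head subunit, had 0.39 ± 0.09, higher in HPLM in all 3 lines, and TCIRG1, an isoform of the membrane subunit a, had −0.34 ± 0.11, lower in all 3 (edgeR, adjusted p = 0.362 and 0.411). The 34 core autophagy genes had a median of 0.01, with 2 genes higher and 0 lower by unadjusted p, the protease gene ATG4D at 0.46 ± 0.12 and ATG7, an activating enzyme of LC3 conjugation, at 0.33 ± 0.11 (edgeR, adjusted p = 0.381 and 0.438).

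Among 15 other ATG8 genes and receptors the median was 0.00, with 3 genes higher and 2 lower by unadjusted p. BNIP3, a mitophagy receptor, had 146, 154 and 124 TPM in HSC3, HSC4 and SAS in HPLM, against 48.3, 90.5 and 78.2 in DMEM. Every HPLM library lay above every DMEM library, with a log2 fold change of 1.06 ± 0.18 (edgeR, adjusted p = 0.296), and GABARAPL2 had 0.26 ± 0.10 (edgeR, adjusted p = 0.458). The 31 nutrient-sensing genes had a median of −0.09, with 2 higher and 4 lower. FNIP1, a partner of folliculin, had −0.50 ± 0.14, and ITFG2, of the KICSTOR complex, had 0.35 ± 0.11 (edgeR, adjusted p = 0.394 and 0.42).

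Cystatins inhibit cysteine cathepsins, and 4 of 9 could be tested, with a median of 0.23 and 1 higher at an unadjusted p under 0.05. CSTA had 330.5, 193 and 94.4 TPM in HSC3, HSC4 and SAS in HPLM, against 313, 84.2 and 78.6 in DMEM, and 0.56 ± 0.22 (edgeR, adjusted p = 0.49). HSC4 showed most of this gap, and CSTB had 0.16 ± 0.10 (edgeR, adjusted p = 0.641).

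**Figure D5:**
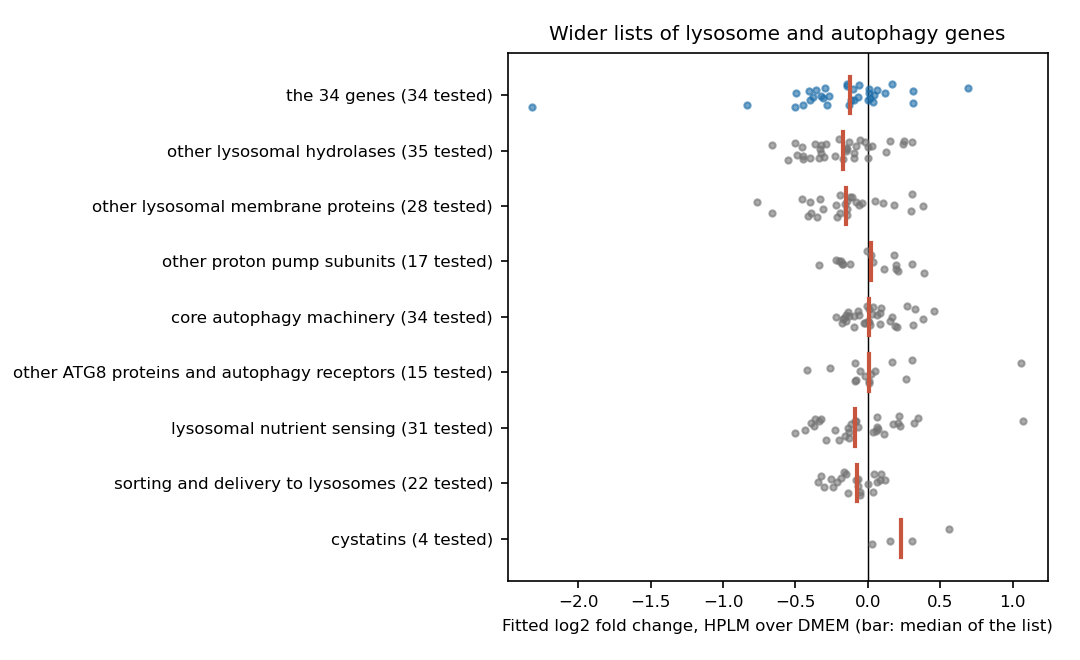
Fitted log2 fold change of HPLM over DMEM for every tested gene of the 34 and of the wider lists, 1 point per gene, with the median of each list as a bar. The medians of the 34, of other hydrolases and of other membrane proteins lie at −0.13, −0.17 and −0.15, and those of other proton pump subunits and core autophagy at 0.02 and 0.01.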

How the data were processed

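RNA of HSC3, HSC4 and SAS grown in HPLM and DMEM was measured in 6 libraries with a strand-specific poly(A) protocol, per the labels' protocols. FastQC and kallisto were used with hg38, per the submitters' processing notes, with versions not given in the sources used here. The authors deposited estimated counts per transcript as scaled TPM, abundances corrected for length and scaled to library size, so they are not read numbers and no counting interval is given. Whether strand was used in quantification is not stated, so overlapping antisense genes may add to a value. Columns were matched to samples by name, and those taken for DMEM name the line and no medium.

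Of 161149 rows, 1312 repeats were counted once, and 6878 transcripts without a symbol (0.362% to 0.479% of a library) were left out. Values were summed by symbol and rounded. Software was edgeR 4.0.16, DESeq2 1.42.0 and limma 3.58.1 in R 4.3.3. Genes were filtered by filterByExpr (minimum count 10, total 15), scaled by TMM and fitted with line and medium as terms in edgeR's quasi-likelihood test (2 residual degrees of freedom), with Benjamini-Hochberg adjustment over all 13236 genes. Ratios within a line used a prior count of 2. A standard error is the size of the fitted log2 value divided by the root of the F statistic. The variance in that statistic draws partly on other genes (median prior degrees of freedom 4, against 2 residual). A standard error is therefore not the spread of a gene's own ratios over the lines.

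The line pairs the libraries: Spearman's rho between media was 0.983, 0.985 and 0.984 within HSC3, HSC4 and SAS, and at most 0.917 between lines. The labels do not say that libraries came from separate cultures, so p-values speak for these libraries only. They rest on a variance drawn partly from other genes. The members and wider lists were chosen with earlier results of these data known. Genes given in full were those at an unadjusted p under 0.05, up to 3 per line contrast and direction, 8 key genes and the ends of the level range, plus 2 per wider list by smallest p. Transcript types came from GENCODE 29, which held 95.3% of the transcripts with a symbol. The others were counted as coding.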

Additional observations from a re-analysis of the deposited data

How the results depend on the processing

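The number of the 34 called between media was 0 in edgeR and 0 in limma-voom, which called 9 of all genes, and 4 in DESeq2. DESeq2 gave 1 gene higher at an unadjusted p under 0.05, against 2 in edgeR. The replicate block is the cell line, which pairs the libraries by design; with no replicate block, 1 gene was lower and 0 were higher at an unadjusted p under 0.05 (26 and 33 of all genes), and 0 were called. Such a fit was not run for the contrasts between lines.

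Leaving out each library in turn gave 0 called between media, 9 to 10 lower and 1 to 3 higher at an unadjusted p under 0.05, and a median of −0.188 to −0.0973. It gave 7 to 18 calls for HSC3 over HSC4 (13 without HSC3 in HPLM), 11 to 21 for HSC3 over SAS (13 without HSC3 in DMEM, 14 without SAS in HPLM) and 8 to 15 for HSC4 over SAS. Where this left a line with 1 library in a medium-adjusted fit, that library was assumed to vary like the others. Fewer samples lower the number of calls. Shares among all genes in these fits are not given here, so the counts show only their dependence on single libraries. Scaling by DESeq2 size factors, library totals, no filter on low counts, repeated rows counted and coding transcripts alone left the total counts of calls within 1.5 times, though under library totals the genes higher in HSC3 than in HSC4 were 4, against 8, with 15 to 17 genes lower in all 3 lines. Over the alternatives for single genes between media, where 0 were called at first, 432 values kept direction and side of the threshold, 39 uncalled values changed sign and 4 became called (DESeq2). Between lines, coding transcripts alone kept the call and direction of 18 of 20 genes for HSC3 over HSC4, 20 of 24 for HSC3 over SAS and 14 of 15 for HSC4 over SAS. ASAH1 turned sign in both HSC3 contrasts, and over SAS it was called in the opposite direction (−2.02, against 0.90 over all transcripts). Its main coding transcript averaged 0.90 TPM over the 6 libraries, near the floor, and 57 of its 69 GENCODE 29 transcripts were not analysed. The cause of the turn was not tested.

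There was 1 library per line and medium: 3 line pairs test a shared difference, and a difference between lines in the response to medium has no test. For ATP6AP1, low values of 3 to 38 estimated counts limit every statement. They cover 9 of its 10 GENCODE 29 transcripts, so a low level of the whole gene is not shown.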

Other observations

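Beyond the genes above, MITF, the relative of TFEB and TFE3 best known from melanocytes, had 8.44, 14.3 and 6.87 TPM in HSC3, HSC4 and SAS in HPLM, against 2.3, 15.4 and 2.28 in DMEM. It was higher in HPLM in HSC3 and SAS and slightly lower in HSC4, with a fitted log2 fold change of 1.07 ± 0.40 (edgeR, unadjusted p = 0.0365, adjusted p = 0.465). LAPTM4B, a lysosomal membrane protein often raised in tumours, had 139, 164 and 223 TPM in HPLM, against 101, 135 and 219 in DMEM, and 0.31 ± 0.10 (edgeR, adjusted p = 0.425), with HSC3 showing the largest gap. Both genes were chosen after their values were seen.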
